A study of Mus musculus with 150 samples.

Results

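Cerebellins, C1q-like proteins and neurexins are synaptic organizers, and 9 of their genes were followed through 150 single mouse somatosensory neurons: Cbln1, Cbln2, Cbln4, C1ql1, C1ql2, C1ql3, C1ql4, Nrxn2 and Nrxn3. They are 9 of the 54082 genes of the count table, and all 9 had a count in at least 1 cell. The members were chosen by their level by neuron type and by skin, in CPM (counts normalised to the total of a cell or sum). Their differences between neuron types and between skins are therefore described, and no p-value is given for them.

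The study asked how touch neurons differ with the skin they supply. Each sample was 1 neuron of an outbred CD1 mouse from Charles River, read by Smart-seq (full-length cDNA of polyA RNA) and labelled by the skin it innervated: 45 were hairy and 1 had both labels, which entered no comparison, and all others were glabrous (hairless skin). No transgene or treatment is named in the labels, and all groups share the strain. Skin and preparation were not balanced. Plate 2 held 35 hairy and 19 glabrous cells and plate 1 held 10 hairy and 85 glabrous cells. Per the labels cDNA was made in 5 batches, and of the 5 library labels the fifth held 33 hairy and 17 glabrous cells. Each litter was on 1 plate except K, whose hairy cells were all on plate 2 and whose glabrous cells were on both. The cells came from 10 litters, 8 of postnatal day 5 with 117 cells and 2 of day 4 with 33 cells, and the litter was taken as the replicate. The labels do not say how many animals a litter stands for. Totals ran between 395811 and 1053854 counts per cell, with 4360 to 15865 genes detected (median 14183.5), so a level under that of 1 count, about 1 CPM or somewhat more, was not detectable in a single cell.

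Cerebellins and C1q-like proteins are secreted, have a globular domain like that of complement C1q, and sit in the synaptic cleft. Cerebellins bind neurexins on the presynaptic membrane and delta-type glutamate receptors on the postsynaptic one, and C1q-like proteins bind the adhesion receptor Adgrb3, with neurexin-kainate receptor complexes as further partners. Neurexins are presynaptic membrane proteins whose alternative splicing sets which of these ligands they bind. In somatosensory ganglia such proteins are of interest because each class of touch and pain neuron connects to its own layer of the spinal cord.

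The 4 C1q-like members are close relatives, so the end of their coding sequence is shown to tell how far a read can separate them. Each line gives the last 60 coding bases before the stop codon in GRCm38 (mm10), 5′ to 3′, and capitals mark the bases that differ from C1ql4.
C1ql4: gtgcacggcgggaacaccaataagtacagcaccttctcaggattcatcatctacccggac
C1ql3: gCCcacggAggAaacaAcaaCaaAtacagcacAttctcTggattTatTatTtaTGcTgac
C1ql2: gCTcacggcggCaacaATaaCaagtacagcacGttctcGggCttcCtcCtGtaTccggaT
C1ql1: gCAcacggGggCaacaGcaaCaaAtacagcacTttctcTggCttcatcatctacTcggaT
The stretches lie at chr15:99084757-99084816 on the minus strand for C1ql4, chr2:13004268-13004327 on the minus strand for C1ql3, chr1:120342512-120342571 on the plus strand for C1ql2 and chr11:102939736-102939795 on the minus strand for C1ql1, all in coding exons. They share 75% (C1ql3), 76.7% (C1ql2) and 80% (C1ql1) of their bases with C1ql4. Over whole transcripts, words of 31 bases common to 2 members were rare: 13 in C1ql2, 13 in C1ql3, 1 in Nrxn2 and 0 in C1ql4 and in each of the other 5 genes. Reads of C1ql4 and of the cerebellins could thus be told from those of the other members at this word length.

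Neurons were put into types by marker genes that are no members. Neurons with Nefh, a neurofilament of large myelinated axons, at 500 CPM or more and Calca, the neuropeptide CGRP, under 500 CPM were split by their highest receptor among Ntrk2, Ntrk3 and Ret, which gave 16 Ntrk2-dominant (2 hairy, 14 glabrous), 17 Ntrk3-dominant (0 hairy, 17 glabrous) and 35 Ret-dominant cells (10 hairy, 25 glabrous). A further 35 cells were Nefh-high and Calca-positive (7 hairy, 28 glabrous). Among cells under the Nefh minimum, 19 formed the Tafa4 type (at least 100 CPM of Tafa4 and more Tafa4 than Calca; 13 hairy, 6 glabrous), named for a secreted protein of unmyelinated touch neurons, and 16 the Nefh-low Calca type (10 hairy, 6 glabrous). The remaining 11 cells had no type. All 6 sensory neuron markers (Tubb3, Avil, Isl1, Prph, Snap25, Rbfox3) had a median of at least 10 CPM in each of the 6 types, and 5 of 6 did so in the cells with no type. In those 11 cells the summed level of these 6 markers had a median of only 747 CPM, against medians of 6294 to 8555 CPM in the types. It ran between 80.4 and 7490 CPM, and its highest value lay within the range of typed cells. The summed myelinating Schwann cell markers had a median of 7503 CPM. The neuron label of the cells with low values is thus not borne out by these markers. Of 5 markers of proprioceptors (Pvalb, Runx3, Spp1, Whrn, Etv1), 4 had a median of at least 10 CPM in Ntrk3-dominant cells, against 1 or 2 in the other types. Their summed level had a median of 262 CPM there, 334 CPM in Ret-dominant and 287 CPM in Ntrk2-dominant cells. Whether the Ntrk3-dominant type holds proprioceptors was not tested. Near the boundaries, 20 cells had 250 to 1000 CPM of Nefh, 6 had 200 to 1000 CPM of Calca, and in 9 the leading receptor was less than 2-fold above the next. Counts of each type were summed per litter where a litter had at least 2 such cells, which gave 34 sums from 10 litters. In the text a litter sum is such a value, in CPM.

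The secreted members differed in the neuron types that held them. Cbln2 was highest in Ntrk2-dominant and Ntrk3-dominant neurons, C1ql4 was held almost entirely by neurons rich in Tafa4, and Cbln4 appeared in 8 scattered cells that also had Cbln2. Nrxn3 was highest in Ntrk3-dominant and lowest in Tafa4 neurons, and Nrxn2 was found in all types. Taking 10 CPM as a clear signal, 76 of 149 cells had no secreted member, 55 had 1, 17 had 2 and 1 had 3.

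**Figure D1:**
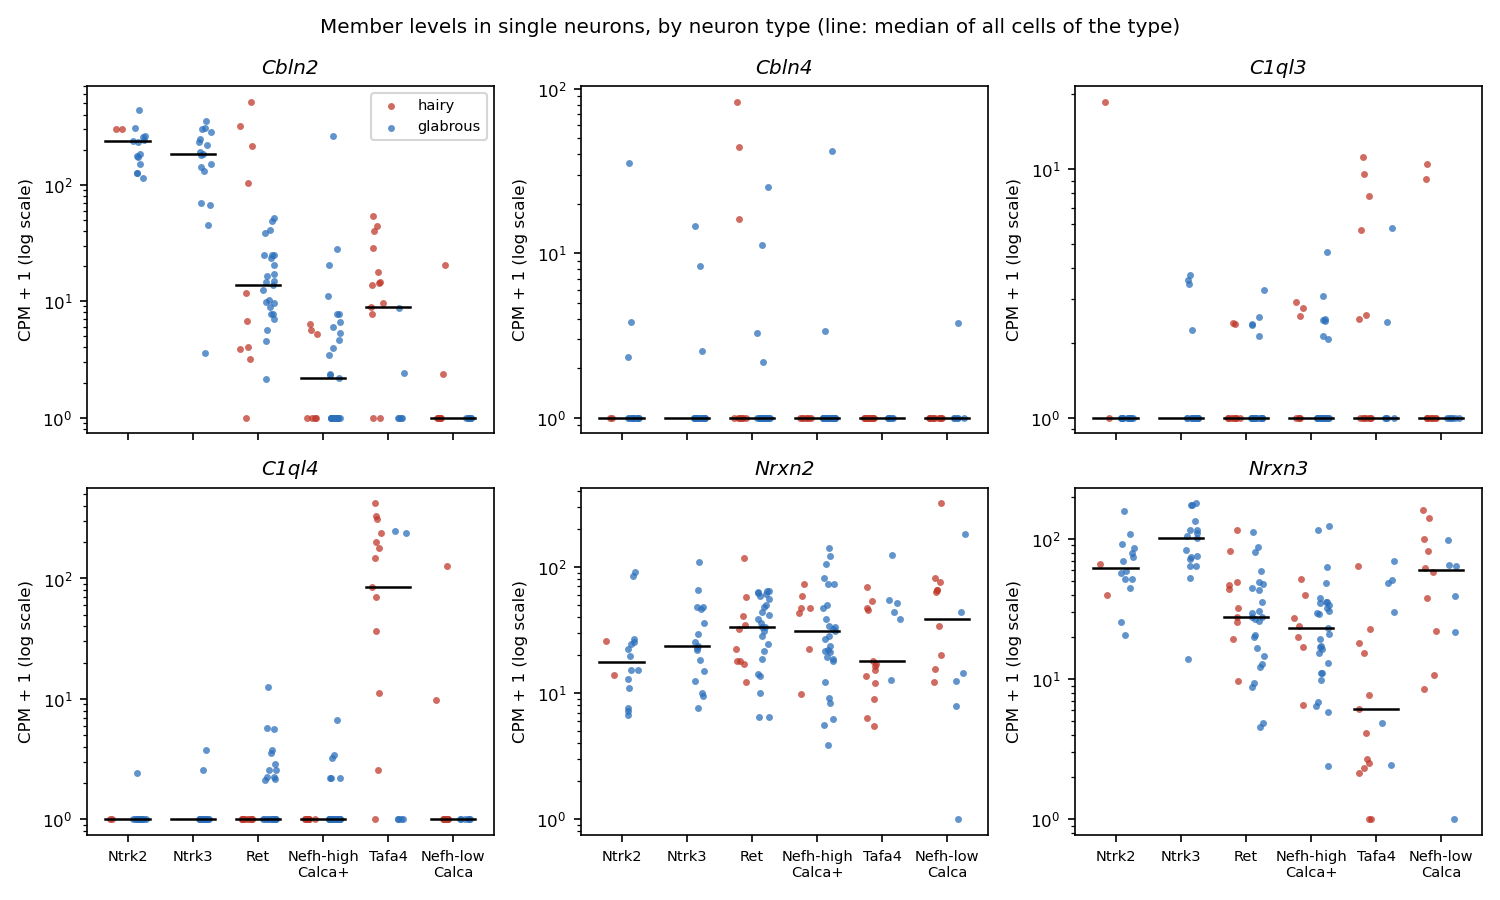
Level of 6 members in each typed neuron (vertical axis, CPM + 1 on a log scale) by neuron type (horizontal axis; Ntrk2, Ntrk3 and Ret stand for the receptor-dominant Nefh-high types), with hairy cells in red to the left of glabrous cells in blue and a line at the median of all cells of a type. Cbln2 fills the Ntrk2 and Ntrk3 columns, C1ql4 stands out in the Tafa4 column, and Nrxn2 is spread over all 6.

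Cbln2, a cerebellin that binds neurexins and delta receptors, was at 10 CPM or more in 67 of 149 cells and had no count in 45. It reached 10 CPM in 16 of 16 Ntrk2-dominant cells (113 CPM in the lowest), 16 of 17 Ntrk3-dominant cells and 20 of 35 Ret-dominant cells. Only 4 of 35 Nefh-high Calca-positive, 8 of 19 Tafa4 and 1 of 16 Nefh-low Calca cells reached it. The cells of the Ntrk2-dominant type did not overlap in Cbln2 with the Tafa4 or the Nefh-low Calca cells, whose highest values were 52.6 and 19.7 CPM.

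By litter, the Ntrk2-dominant sums held 226 (litter E_F_G), 160 (I) and 369 CPM (P_Q) of Cbln2, a mean of 252 ± 107 CPM (SD, n = 3 litters). The Ntrk3-dominant sums held 147 (E_F_G), 106 (I) and 273 CPM (O), a mean of 175 ± 87.3 CPM (SD, n = 3). These were the 2 highest types and their ranges overlapped. Ret-dominant sums lay between 2.80 and 117 CPM with a median of 21.3 CPM (7 litters), and Nefh-high Calca-positive sums between 0 and 126 CPM with a median of 2.42 CPM (8 litters). Every Ntrk2-dominant sum was above every sum of these 2 types, while the lowest Ntrk3-dominant sum was not. Tafa4 sums lay between 0 and 26.5 CPM with a median of 6.42 CPM (7 litters), and Nefh-low Calca sums between 0 and 6.67 CPM, with 4 of 6 at 0. From Ret-dominant down, each type's range overlapped with that of the next.

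In the litter-blocked fit, Cbln2 stood 4.29 ± 0.84 (log2, SE) above the mean of the other types in Ntrk2-dominant and 4.17 ± 0.94 above it in Ntrk3-dominant neurons, in 3 of 3 litters each. The log2 difference was 0.92 ± 0.77 in Ret-dominant neurons, -1.98 ± 1.00 in Nefh-high Calca-positive neurons and -1.74 ± 0.97 in Tafa4 neurons. Nefh-low Calca neurons stood at -5.66 ± 1.22 and were lower in 6 of 6 litters. Within plate 1 and plate 2, where sums of 1 cell were also taken, the Ntrk2-dominant difference was 4.07 and 4.16, and the Ntrk3-dominant one 3.06 and 5.33. The Tafa4 difference was -3.43 within plate 1 and 0.83 within plate 2, so its direction depends on the plate.

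**Figure D2:**
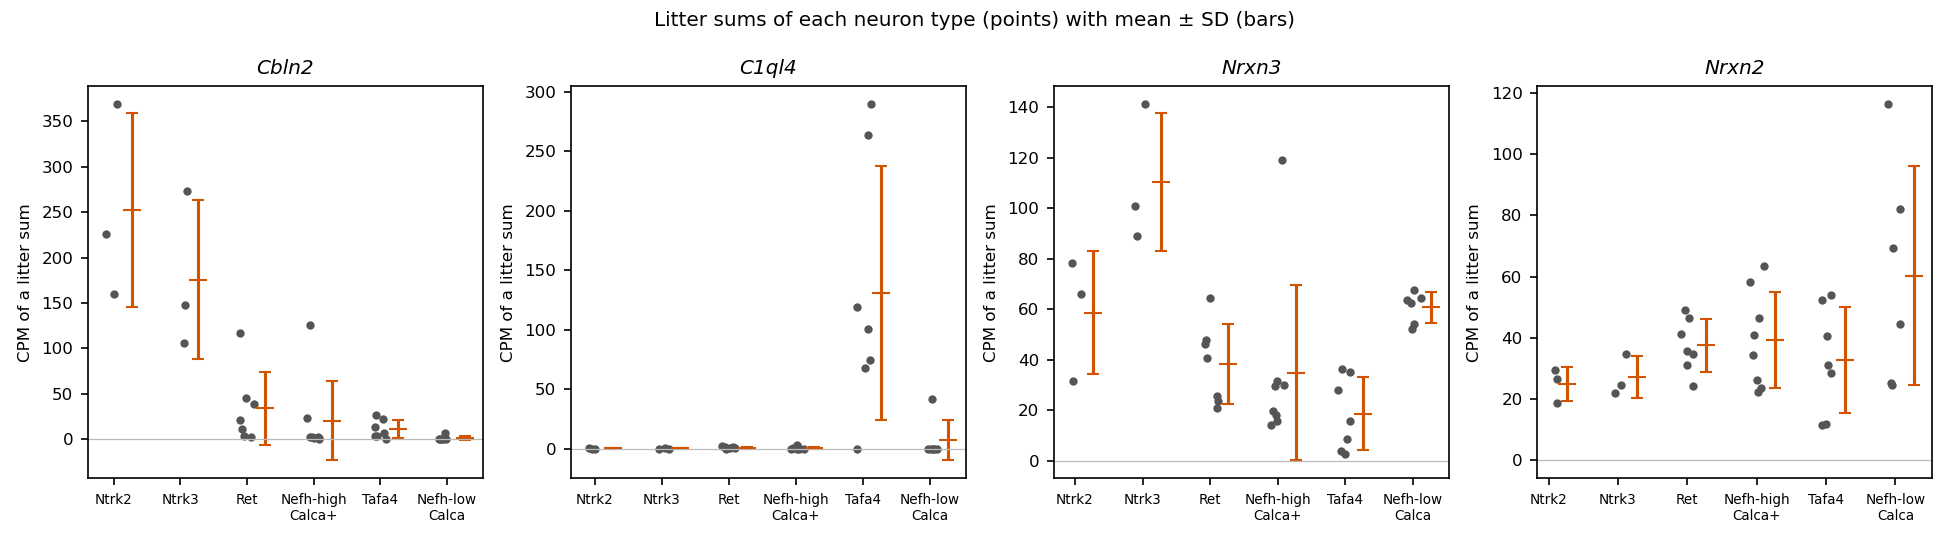
Litter sums (points, vertical axis in CPM) of Cbln2, C1ql4, Nrxn3 and Nrxn2 in each neuron type (horizontal axis, named as in the plot of single cells), with bars for mean ± SD over litters. Cbln2 averages 252 and 175 CPM in Ntrk2-dominant and Ntrk3-dominant sums, and C1ql4 131 CPM in Tafa4 sums.

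The Ret-dominant neurons were not uniform in Cbln2. In 4 of 35, all hairy and each from another litter, Cbln2 was at 101.8 (C_D), 215 (E_F_G), 321 (H) and 515 CPM (P_Q). The other 31 cells, 6 hairy and 25 glabrous, had a median of 10.7 CPM and at most 51.1 CPM. The 4 cells had a median of 214 CPM of Ret, against 849 CPM in the other 31, and 133 CPM of Ntrk2, against 40.4 CPM. In the cells of C_D, E_F_G and H, Ret was less than 2-fold above the next receptor. Ret was at 238 CPM against 144 of Ntrk2 (C_D), 191 against 148 of Ntrk3 (E_F_G) and 135 against 105 of Ntrk2 (H). These cells lie near the boundary of the type, and whether they belong to it was not tested. This boundary of 100 CPM was set after the values had been seen, so the split is a description.

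Cbln4, a cerebellin that binds the netrin receptors Dcc and Neo1 besides neurexins, had a count in 16 of 149 cells and reached 10 CPM in 8. All 8 also had at least 10 CPM of Cbln2. Of these 8 cells 5 were Ret-dominant and 3 of those were among the 4 hairy cells rich in Cbln2, at 15.1, 43.2 and 82.3 CPM of Cbln4. The others were a glabrous Ntrk2-dominant cell at 34.2 CPM, a glabrous Ntrk3-dominant cell at 13.7 CPM and a glabrous Nefh-high Calca-positive cell at 41.05 CPM. No Tafa4 cell had a count of Cbln4 (0 of 19). The Ret-dominant litter sums averaged 3.49 ± 6.38 CPM (SD, n = 7), with 3 of 7 at 0, and no type's range lay apart from the others.

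C1ql4, a C1q-like ligand of Adgrb3, was the member most confined to 1 type. It had at least 10 CPM in 13 of 19 Tafa4 cells, 1 of 35 Ret-dominant cells, 1 of 16 Nefh-low Calca cells and 0 of the 17 Ntrk3-dominant, 16 Ntrk2-dominant and 35 Nefh-high Calca-positive cells. The Tafa4 litter sums had a lowest value of 0 (litter H), a median of 100 CPM (O) and a highest of 290 CPM (L), a mean of 131 ± 107 CPM (SD, n = 7). Outside that type the highest litter sum was 41.4 CPM, in the Nefh-low Calca cells of litter L, and the next 2.85 CPM. So 6 of 7 Tafa4 sums lay above every other sum. The fitted difference was 7.37 ± 0.61 (log2, SE) and 8.43 within plate 2. In plate 1 alone C1ql4 did not pass the filter on low counts.

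The Tafa4 type itself held 2 kinds of cell, and C1ql4 followed the level of Tafa4. In the 14 cells with at least 500 CPM of Tafa4 (12 hairy, 2 glabrous, 7 litters), every cell had a count of C1ql4, with a lowest value of 1.57, a median of 190 and a highest of 419 CPM. In the 5 cells between 139 and 290 CPM of Tafa4 (1 hairy, 4 glabrous, 3 litters), C1ql4 was at 0 in all. The 14 cells carried Zfp521, a marker of unmyelinated touch neurons, at a median of 209 CPM and Mrgprd at a median of 0. The 5 cells carried Mrgprd, the receptor that marks non-peptidergic pain neurons, at a median of 1929 CPM and Zfp521 at 2.40 CPM, so they go against the touch neuron marker that put them in the type. Th, another marker of unmyelinated touch neurons, went the other way, with a median of 4.37 CPM in the 14 cells and 10.3 CPM in the 5. It reached 10 CPM in 3 of 14 and 3 of 5 cells. Scn11a, another marker of non-peptidergic pain neurons, was at 10 CPM or more in all 14 cells. Its median was 201 CPM in the 14 cells and 576 CPM in the 5. A boundary at 500 CPM was chosen after the values had been seen. Over all 149 cells, 15 had at least 500 CPM of Tafa4, of which 15 had a count of C1ql4 and 14 had at least 10 CPM, against 1 of the other 134 cells. The fifteenth was a hairy Nefh-low Calca cell of litter L with 651 CPM of Tafa4, 3675 CPM of Calca and 126 CPM of C1ql4.

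**Figure D3:**
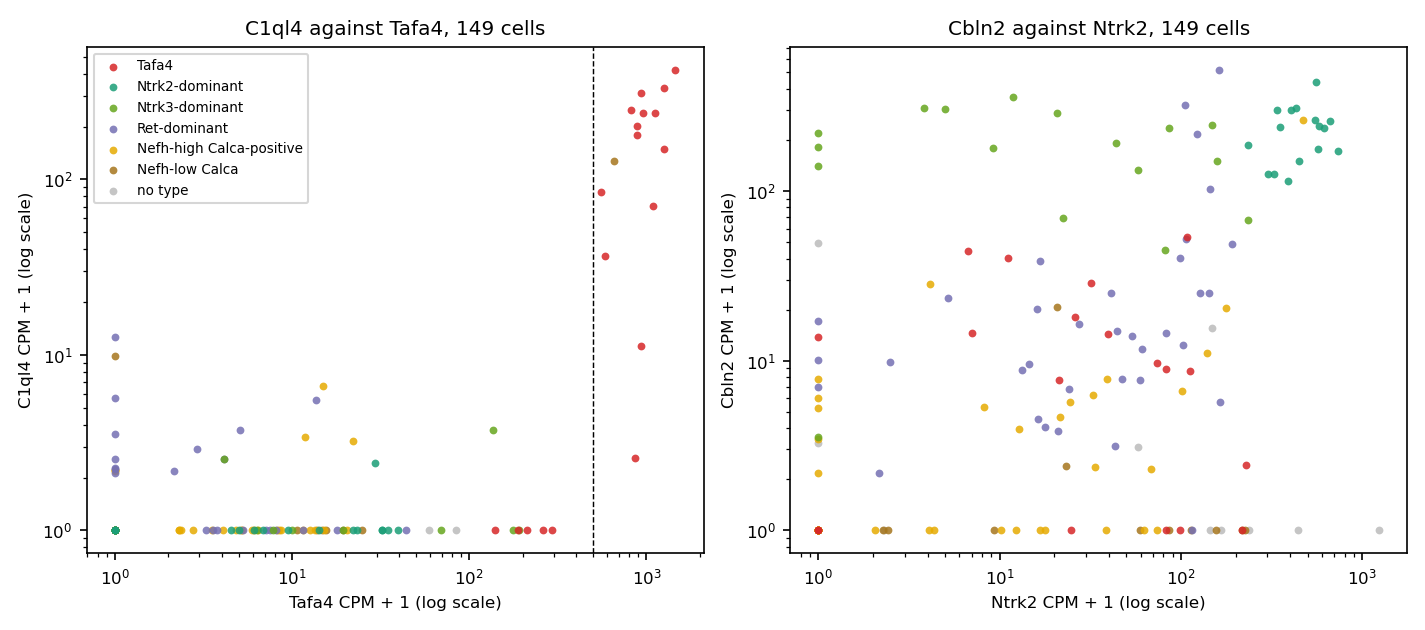
C1ql4 against Tafa4 (left) and Cbln2 against Ntrk2 (right) in 149 cells, both axes in CPM + 1 on a log scale, with colours for neuron types and a dashed line at 500 CPM of Tafa4. All 15 cells right of the line have a count of C1ql4, while Cbln2 is high both in Ntrk2-rich cells and in Ntrk3-dominant cells with little Ntrk2.

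Those 14 cells also had a low level of other members' transcripts. Cbln2 had a count in 13 of 14, with a median of 13.1 and a highest value of 52.6 CPM, against 0 in all 5 cells with less Tafa4. Nrxn3 had a median of 2.42 CPM in the 14 and 47.7 CPM in the 5. Markers of myelinating Schwann cells moved with the type: all 6 had a median of at least 10 CPM in Tafa4 cells, and their summed level ran between 1645 and 22723 CPM (median 4613 CPM), against type medians of 1071 to 2998 CPM elsewhere among typed cells. With the summed non-neuronal marker level in the model the C1ql4 difference was 7.30 ± 0.95. The Schwann sum had a median of 5613 CPM in the 14 cells and 2261 CPM in the 5 cells with less Tafa4, so it moved with the same split as C1ql4. Within the 14 cells its Pearson correlation with C1ql4 was 0.015, a description over cells of 7 litters. Its part in the difference between the 14 and the 5 cells was not tested.

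C1ql3, which in the brain bridges to kainate receptor complexes and Adgrb3, had a count in 33 of 149 cells but reached 10 CPM in only 2, a hairy Ntrk2-dominant cell of litter P_Q at 17.7 CPM and a hairy Tafa4 cell of litter M at 10.2 CPM. That cell of litter M was also the 1 cell with 3 secreted members at 10 CPM or more, with 27.8 CPM of Cbln2 and 312 CPM of C1ql4. Litter sums of C1ql3 averaged 1.96 ± 1.89 CPM in Tafa4 neurons (SD, n = 7) and between 0.21 and 2.87 CPM in the other types, and all ranges overlapped. Cbln1, the cerebellin of cerebellar granule cells, had a count in 4 of 149 cells and at most 2.09 CPM. C1ql1, the ligand that climbing fibres use, had a count in 2 cells and at most 1.58 CPM. C1ql2, its relative of hippocampal mossy fibres, had a count in 1 cell, at 1.12 CPM. At this depth these 3 genes were not detectable beyond the few counts of those cells, and they did not pass the filter on low counts in any comparison.

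Nrxn3 is a presynaptic receptor of these ligands. It had a count in 141 of 149 cells, and its level differed by type. Ntrk3-dominant sums held 89.1 (E_F_G), 100.7 (I) and 141 CPM (O), a mean of 110 ± 27.4 CPM (SD, n = 3). Nefh-low Calca sums followed with 60.8 ± 6.20 CPM (n = 6), Ntrk2-dominant with 58.6 ± 24.4 (n = 3), Ret-dominant with 38.4 ± 15.9 (n = 7), Nefh-high Calca-positive with 34.8 ± 34.8 (n = 8) and Tafa4 with 18.6 ± 14.5 CPM (n = 7). The Ntrk3-dominant range did not overlap with that of Nefh-low Calca neurons, which was 52.2 to 67.8 CPM. It did overlap with that of Nefh-high Calca-positive neurons, which was 14.3 to 119 CPM, with the highest value in litter A_B. Each later type's range overlapped with the next. Tafa4 sums had a lowest value of 2.73, a median of 15.8 and a highest of 36.4 CPM, below the lowest Nefh-low Calca sum in every litter.

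The fitted Nrxn3 difference was 1.63 ± 0.46 (log2, SE) in Ntrk3-dominant neurons, higher in 3 of 3 litters, and -1.63 ± 0.36 in Tafa4 neurons, lower in 7 of 7. Within plate 1 and plate 2 the first was 0.86 and 2.13 and the second -0.65 and -3.18. In glabrous cells alone, where most Tafa4 cells were those with little Tafa4 and much Mrgprd, the Tafa4 difference was -0.15. With the non-neuronal marker level in the model, the Ntrk3-dominant difference was 1.29 and the Tafa4 difference -0.94. The part of Schwann cell RNA in the lower Nrxn3 of Tafa4 neurons was not tested beyond that fit.

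Nrxn2 had a count in 144 of 149 cells and at least 10 CPM in 122. Its litter sums averaged 60.3 ± 35.9 CPM in Nefh-low Calca neurons (SD, n = 6), 39.4 ± 15.6 in Nefh-high Calca-positive (n = 8), 37.5 ± 8.72 in Ret-dominant (n = 7), 32.9 ± 17.3 in Tafa4 (n = 7), 27.2 ± 6.79 in Ntrk3-dominant (n = 3) and 24.97 ± 5.50 CPM in Ntrk2-dominant neurons (n = 3). All neighbours in this order overlapped. The 6 Nefh-low Calca sums were 25.3 (E_F_G), 24.7 (H), 81.9 (I), 69.2 (L), 44.6 (M) and 116 CPM (P_Q), so 4 of 6 lay above the mean of their litter's other types and 2 did not. The fitted difference was 0.95 ± 0.31 in this type, -0.24 in glabrous cells alone and 0.28 and 0.88 within plates 1 and 2. In Ntrk2-dominant neurons it was -0.73 ± 0.41.

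For each type the fit covered 14357 genes, of which 6 were members (Cbln2, Cbln4, C1ql3, C1ql4, Nrxn2, Nrxn3). At an adjusted p of 0.05 (edgeR, Benjamini-Hochberg), 1 member passed in Ntrk2-dominant neurons (Cbln2), where 4.10% of all genes passed, and 2 in Ntrk3-dominant neurons (Cbln2 and Nrxn3), where 4.67% did. In Ret-dominant neurons 0 of 6 passed, against 5.62% of all genes, and in Nefh-high Calca-positive neurons 0 of 6, against 7.21%. Tafa4 neurons had 2 (C1ql4 higher, Nrxn3 lower), where 10.5% of all genes were higher and 12.5% lower, and Nefh-low Calca neurons 2 (Nrxn2 higher, Cbln2 lower), where 21.5% did. Since the choice of members drew on levels by neuron type, nothing is read from these counts. Leaving out each litter in turn gave log2 differences of 3.88 to 5.09 for Cbln2 in Ntrk2-dominant neurons, 3.53 to 5.54 for Cbln2 and 1.10 to 2.02 for Nrxn3 in Ntrk3-dominant neurons, and 0.57 (without litter P_Q) to 1.26 for Nrxn2 in Nefh-low Calca neurons.

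The genes whose pattern over the 34 sums was most like that of each member were found among 14345 genes by the Pearson correlation of log2(CPM + 1), given as a description of sums that share litters and depth. Cbln2 was most like Htr5b (r = 0.89), a serotonin receptor, Sema7a (0.87), a semaphorin, and Calb1 (0.87), a calcium buffer. Calb1 averaged 140 ± 16.2 CPM in Ntrk2-dominant and 108 ± 52.3 in Ntrk3-dominant sums (SD, n = 3 each), and also 97.4 ± 86.2 CPM in Ret-dominant sums (n = 7). C1ql4 was most like Nek5 (0.96), Lox (0.94), an enzyme that crosslinks collagen and elastin, and Tnnt2 (0.92), a troponin. Lox averaged 58.9 ± 54.1 CPM in Tafa4 sums (n = 7) and at most 4.05 CPM in the other types. Nrxn3 was most like Vstm2l and Bcl2 (0.75 each) and Spata7 (0.73), Nrxn2 like Slc39a11 (0.81) and C1ql3 like Pan2 (0.75). Nrxn3 and Vstm2l shared their extremes, with Vstm2l at 161 ± 45.7 CPM in Ntrk3-dominant and 21.3 ± 14.98 CPM in Tafa4 sums.

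Partners of the family were read from lists chosen with earlier results of these data known. Of 6 receptors of cerebellins and C1q-like proteins (Grid1, Adgrb3, Grik2, Grik4, Dcc, Neo1), 5 passed the filter and were tested by type. Adgrb3, the receptor of C1q-like proteins, was higher in Ntrk3-dominant neurons (1.97 ± 0.46 log2, adjusted p = 0.0112), at 88.4 ± 30.9 CPM (n = 3), and averaged 14.5 CPM in Tafa4 neurons, where its ligand C1ql4 was high. Neo1, a receptor of Cbln4, and Grik4, a kainate receptor subunit, were higher in Tafa4 neurons by 0.83 ± 0.24 (adjusted p = 0.0127) and 0.57 ± 0.20 (adjusted p = 0.0394; 0.177 with the non-neuronal marker level in the model), and Grik4 was lower in Ntrk2-dominant neurons by -1.92 ± 0.33 (adjusted p = 0.000759). In the other 3 types 0 of 5 passed, where 5.62% (Ret-dominant), 7.21% (Nefh-high Calca-positive) and 21.5% (Nefh-low Calca) of all genes did. In the types with a receptor past the threshold, 4.67% (Ntrk3-dominant) and 4.10% (Ntrk2-dominant) of all genes passed, and 10.5% were higher in Tafa4 neurons. These p-values are from edgeR's quasi-likelihood test with Benjamini-Hochberg adjustment over all genes.

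A list of 6 genes held partners of neurexins inside the axon (Cask, Apba1, Apba2, Lin7a, Lin7b, Lin7c), of which 3 were higher and 1 was lower in Nefh-high Calca-positive neurons (5.63% and 1.57% of all genes), 1 was higher and 1 was lower in Tafa4 neurons (10.5% and 12.5% of all genes), and 1 to 3 passed in each of the other types (4.10% to 21.5% of all genes). With the non-neuronal marker level in the model, at most 1 was higher and 0 were lower in Nefh-high Calca-positive neurons. In Tafa4 neurons only Lin7b of the 6 then passed (adjusted p = 8.37e-05, edgeR), while Apba1 had an adjusted p of 0.0565. Lin7b, a scaffold protein of neurexin complexes, was lower in Tafa4 neurons by -2.54 ± 0.28 (adjusted p = 2.87e-07) and higher in Ntrk3-dominant and Ret-dominant neurons by 1.68 ± 0.30 (adjusted p = 0.00102) and 1.30 ± 0.22 (adjusted p = 0.000691). Of 16 other neurexin ligands 13 were tested. Nxph1, a secreted neurexin ligand, was higher in Ret-dominant neurons (5.44 ± 0.90, adjusted p = 0.0039), though at only 3.3 CPM on average. Clstn2, a calsyntenin, was higher in Ntrk3-dominant (2.50 ± 0.43, adjusted p = 0.000712) and Ntrk2-dominant neurons (2.14 ± 0.40, adjusted p = 0.0018), the types with most Cbln2, and lower in both Calca types. Nlgn1, the postsynaptic neurexin partner neuroligin 1, was lower in Tafa4 neurons by -3.55 ± 0.92 (adjusted p = 0.00611).

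Of 19 other synaptic organizers, 1 was higher and 9 were lower in Tafa4 neurons, where 10.5% of all genes were higher and 12.5% lower. The median log2 difference was -1.20 over the list, against -0.01 over all genes tested. Among the 9 were Slitrk5 (-3.08 ± 0.34, adjusted p = 2.86e-07), a ligand of receptor tyrosine phosphatases, Slitrk3 (-2.61 ± 0.40, adjusted p = 2.88e-05), of the same family, Ptprs, such a phosphatase (-1.20 ± 0.19, adjusted p = 3.52e-05), and Tenm2, a teneurin (-5.09 ± 0.90, adjusted p = 0.000149). The Schwann markers that were raised in this type (median sum 4613 CPM) moved with these differences. With the non-neuronal marker level in the model, chosen after the data were seen, 1 of the 19 was higher and 8 were lower, with a median of -1.19, while the genes that passed in all numbered 1978, against 3301. Ret-dominant neurons had 4 higher and 0 lower (2 and 0 with the non-neuronal level), where 4.33% of all genes were higher and 1.30% lower, with Ptprd at 67.1 ± 16.1 CPM (n = 7; 2.23 ± 0.39, adjusted p = 0.000764). Of 3 RNA-binding proteins that act on neurexin splicing (Khdrbs1, Khdrbs2, Khdrbs3), Khdrbs3 was higher in Nefh-high Calca-positive neurons (1.66 ± 0.26, adjusted p = 0.000132), where 5.63% of all genes were higher. In each of the other 5 types 0 passed, where 4.10% (Ntrk2-dominant) or more of all genes did. Gene-level counts carry no splice forms, so which neurexin isoforms the cells had was not analysed here. The same edgeR test and adjustment over all genes gave these values.

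Hairy and glabrous neurons were compared within litters, on the sums of 7 litters with at least 2 cells of each skin (37 hairy and 68 glabrous cells). C1ql4 was the member that differed most in level: its hairy sums were at 0 in litters C_D and H, at 40.03 CPM in E_F_G, at 146 CPM in L, at 48.9 CPM in O, at 16.4 CPM in P_Q and at 7.90 CPM in K, and its glabrous sums lay between 0 and 1.12 CPM with a median of 0.438 CPM. In 5 of 7 litters the hairy sum was above every glabrous sum, and in 2 it was at 0. Hairy sums averaged 37.1 ± 51.8 CPM and glabrous sums 0.605 ± 0.404 CPM (SD, n = 7). The skins also differed in their mix of neurons: 13 of 45 hairy cells and 6 glabrous cells were of the Tafa4 type, and 12 hairy and 2 glabrous cells of it had at least 500 CPM of Tafa4. Both of those glabrous cells, from litters I and M, had C1ql4, at 248 and 238 CPM, within the range of the hairy ones. The sums alone cannot tell fewer cells of a type from less RNA per cell. In the 7 compared litters, the glabrous Tafa4 cells came from E_F_G and H. They had 139 to 290 CPM of Tafa4 and C1ql4 at 0. No glabrous sum held a cell with at least 500 CPM of Tafa4, so the C1ql4 level of such cells could not be compared between skins within these litters. C1ql4 did not pass the filter on low counts in this fit.

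Cbln2 showed no common direction between skins. Its hairy sums were 208 CPM in litter C_D, 158 in H, 58.9 in P_Q, 47.1 in E_F_G, 12.4 in K, 11.2 in L and 1.92 in O, and the glabrous sums of the same litters 4.08, 116, 118, 84.3, 10.3, 134 and 165 CPM. Hairy was higher in 3 of 7 litters and glabrous in 4, and the ranges overlapped. The fitted difference, hairy minus glabrous, was -0.82 ± 1.13 (log2, SE). It was 1.27 within plate 1 and -2.64 within plate 2, and 1.76 ± 0.70 when the neuron type was in the model. The fit with neuron type was not limited to the 7 litters. It used 57 sums per litter, skin and type, of at least 1 cell, from 10 litters, so a litter could give several sums of 1 skin. No Ntrk3-dominant cell was hairy (0 of 17) and 2 of 16 Ntrk2-dominant cells were.

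**Figure D4:**
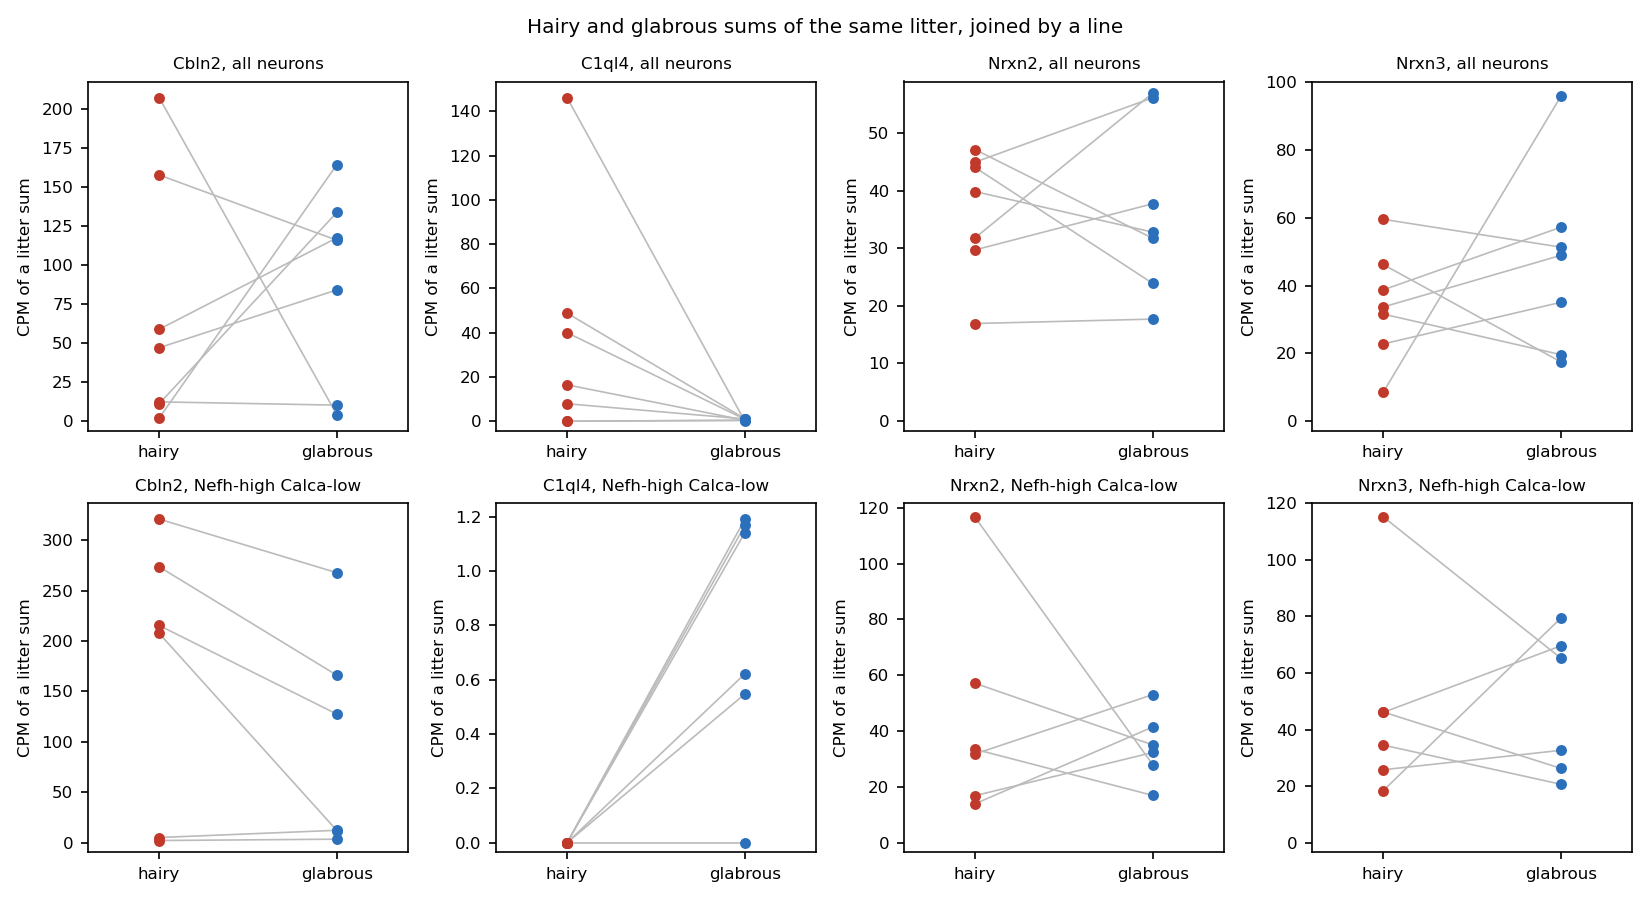
Hairy (left, red) and glabrous (right, blue) sums of the same litter, joined by a line, for Cbln2, C1ql4, Nrxn2 and Nrxn3 in CPM, over all neurons (top, 7 litters) and over Nefh-high Calca-low neurons (bottom, 6 litters). C1ql4 is above 7 CPM in 5 hairy sums and at most 1.12 CPM in glabrous sums of all neurons, and lines of the other 3 genes run both ways.

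The same comparison within Nefh-high Calca-low neurons used 6 litters with at least 1 cell of each skin (10 hairy and 36 glabrous cells). Hairy sums of Cbln2 were 2.16 (A_B), 208 (C_D), 215 (E_F_G), 321 (H), 5.14 (K) and 274 CPM (P_Q), and glabrous sums 3.50, 12.04, 127, 268, 12.3 and 166 CPM. Hairy was higher in 4 of 6 litters, and the ranges overlapped. The difference was 0.92 ± 0.52, or 1.94 ± 0.53 with the receptor-dominant type in the model and 2.57 ± 0.81 in Ret-dominant cells alone (5 litters). The fit with the type in the model was not limited to the 6 litters. It used 26 sums per litter, skin and type from 10 litters, so a litter could give several sums of 1 skin. The 4 hairy Ret-dominant cells rich in Cbln2 came from the 4 litters in which hairy was higher. They are part of these sums, so the match is no separate result. The hairy sum was that 1 cell in E_F_G and in H, and it held 2 cells in C_D and 3 in P_Q. In the cells of C_D, E_F_G and H, Ret was less than 2-fold above the next receptor, which limits the value for Ret-dominant cells alone. Cbln4 had hairy sums of 15.1 (E_F_G), 43.2 (H) and 28.7 CPM (P_Q) and 0 in the other 3 litters, against 0 to 3.76 CPM in the glabrous sums, and it did not pass the filter. C1ql4 was at 0 in all 6 hairy sums of these neurons and at 0 to 1.19 CPM in the glabrous ones.

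The neurexin sums of the 2 skins overlapped. Over all neurons Nrxn2 averaged 36.3 ± 10.8 CPM in hairy and 36.7 ± 15.02 CPM in glabrous sums (SD, n = 7), a fitted difference of 0.01 ± 0.24, and Nrxn3 34.4 ± 16.4 CPM in hairy and 46.5 ± 26.7 CPM in glabrous sums, a difference of -0.35 ± 0.47. Within Nefh-high Calca-low neurons the differences were 0.14 ± 0.47 for Nrxn2 and 0.02 ± 0.37 for Nrxn3. For Nrxn3 over all neurons, the value was 0.36 within plate 1 and -1.07 within plate 2. Of the members only Cbln2, Nrxn2 and Nrxn3 passed the filter in the 2 skin comparisons, and 0 of these 3 passed at an adjusted p of 0.05 (edgeR), where 0.0934% of all genes did over all neurons and 0.424% in Nefh-high Calca-low neurons. DESeq2 also called 0 of the 3 in either comparison, and at an unadjusted p of 0.05 edgeR called 0 of 3. Nothing is read from these counts, since the choice of members drew on the skin contrast too.

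Age was not part of how the members were chosen. Glabrous sums of 7 litters of day 5 (89 cells) were set against those of 2 litters of day 4 (14 cells). Nrxn3 averaged 58.7 ± 26.7 CPM at day 5 and 27.3 ± 10.9 CPM at day 4, with the 2 day 4 litters at 19.6 (K) and 35.1 CPM (P_Q) inside the day 5 range of 17.5 to 95.8 CPM. The difference of 1.14 ± 0.52 (log2, SE) did not pass, with an unadjusted p of 0.0545 by edgeR's quasi-likelihood test. Cbln2 averaged 80.6 ± 61.4 CPM at day 5 and 63.97 ± 75.9 CPM at day 4, a difference of 0.42 ± 1.16 that was -0.45 without litter K and 2.97 without litter P_Q. Nrxn2 averaged 37.7 ± 15.5 CPM at day 5 and 30.8 ± 9.79 CPM at day 4, a difference of 0.34 ± 0.48. Of 4 members tested (also Cbln4) 0 passed, as did 0% of 15185 genes. By edgeR 422 genes, and 0 of the 4 members, had an unadjusted p under 0.05, and DESeq2 called 3 genes. With only 2 litters of day 4, the litter and the age cannot be told apart.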

How the data were processed

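Each sample was 1 neuron read by Smart-seq, with 18 amplification cycles and Nextera XT libraries per the labels. Per the submitters' processing notes, FastQC, cutadapt and Salmon were used with mm10, without versions. The deposited values are expected counts per gene, which the authors gave as whole numbers, with no normalization (whether scaled for length: not given in the sources used here). All value columns were matched to samples by title (0 unmatched).

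The 9 genes and all lists were chosen with earlier results of these data known. Counts were summed per litter and neuron type (at least 2 cells per sum; 1 in the fits by type within plates or in glabrous cells) or per litter and skin (at least 2 cells, or 1 within Nefh-high Calca-low neurons). Skin fits with neuron type in the model used sums per litter, skin and type of at least 1 cell. They also took litters without both skins, so the sums and litters changed together with the model. Sums were fitted with edgeR 4.0.16 in R 4.3.3 (TMM, filterByExpr, quasi-likelihood test, Benjamini-Hochberg over all genes, threshold 0.05), with the litter as a block except for age, and each type against the mean of the other 5. The labels name the litter, so sums of 1 litter pair the skins; their deviations correlated at -0.08 to 0.28 over 7 litters. In the paired skin fits, with the litter as a block, p-values measure how the differences within litters vary from litter to litter. In the type fit, 1 model with the litter as a block holds all 6 types, and many litters lack a given type. Its p-values measure a residual spread pooled over all types, which is not particular to 1 type. In the age fit, which has no block, p-values measure the spread between litters. The SE printed with an edgeR difference is the size of the difference divided by the square root of its F statistic. It is an approximation and no fitted standard error. The fits were tested on simulated counts. Named genes were the members, list genes past the threshold or with the smallest p, and 3 genes of most like pattern per member, of which up to 3 are printed. A few list and likeness genes are not reported here. Alternatives were DESeq2 1.42.0, RLE scaling, no filter, other type boundaries, no block, left-out litters, plates, and models with neuron type or non-neuronal marker level. Figures were drawn with matplotlib 3.10.9. Intervals of counting are not given, since amplified reads without molecular identifiers are not independent molecules.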

Additional observations from a re-analysis of the deposited data

Results flagged for a closer look

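Of 31 groups of 4 to 10 litter sums, 8 held a sum that stood far from the others of its group. The rule used marks about 1 in 20 groups by chance if values are normally distributed. These CPM sums are skewed, some are at 0 and groups share litters, so that rate does not apply and no excess is read from the 8. Cbln2 was at 126 CPM in the Nefh-high Calca-positive sum of litter H, where the next was 23.4 CPM. One glabrous cell of that litter had 260 CPM of Cbln2, 467 CPM of Ntrk2 and 1693 CPM of Calca. Cbln2 was at 117 CPM in the Ret-dominant sum of litter P_Q, where the next was 45.7 CPM, and at 6.67 CPM in the Nefh-low Calca sum of litter E_F_G, where the next was 0.51 CPM. C1ql4 was at 41.4 CPM in the Nefh-low Calca sum of litter L, where all others were at 0. It was at 2.85 CPM in the Nefh-high Calca-positive sum of litter O (next 1.14 CPM) and at 2.30 CPM in the Ret-dominant sum of litter E_F_G (next 0.969 CPM). Nrxn3 was at 119 CPM in the Nefh-high Calca-positive sum of litter A_B (next 31.7 CPM) and at 115 CPM in the hairy Nefh-high Calca-low sum of litter E_F_G (next 46.2 CPM), which was a single cell.

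The neuron labelled with both skins entered no comparison. It had 55.1 CPM of Cbln2, 63.9 CPM of Nrxn2 and 27.6 CPM of Nrxn3, above the 3.76 CPM that 3 counts of its total of 797882 amount to, a limit that covers counting error only.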

How the results depend on the processing

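Values printed here are numbers of genes past the threshold or log2 differences, and the cause of a change was not tested. For skin over all neurons (12 genes), DESeq2 gave 337, no filter 342, at least 1 cell per sum 1, and 0 came without the Tafa4 type and within plate 1 and plate 2 (634, 521 and 1439 genes at an unadjusted p under 0.05). For skin in Nefh-high Calca-low neurons (46), DESeq2 gave 266, no filter 418 and type in the model 97. Age (0) gave 3 with DESeq2. Ret-dominant (807) gave 1224 with DESeq2, 1408 with no filter, 309 in glabrous cells and 22 within plate 2. Ntrk3-dominant (671) gave 1182 with no filter, 1602 with at least 1 cell and 1084 with a Nefh minimum of 1000 CPM. Ntrk2-dominant (589) gave 916 with DESeq2, 1151 with no filter, 1228 with at least 1 cell, and 998 and 35 within plates 1 and 2. Nefh-high Calca-positive (1035) gave 1713 with no filter, 372 in glabrous cells, 433 with the non-neuronal level, and 518 and 193 within plates. Tafa4 (3301) gave 829 in glabrous cells, 1978 with the non-neuronal level, and 1766 and 1922 within plates. Nefh-low Calca (3093) gave 1423, 1772, 1959 and 1010 in the same order. Leaving out 1 litter gave 0 to 15 (skin, all), 6 to 37 (skin, Nefh-high Calca-low), 0 to 1 (age), 354 to 943 (Ret-dominant), 154 to 760 (Ntrk3-dominant), 91 to 676 (Ntrk2-dominant), 559 to 1361 (Nefh-high Calca-positive), 2522 to 3269 (Tafa4) and 1796 to 3351 (Nefh-low Calca).

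Directions that turned were, for skin over all neurons, Cbln2 with type in the model (1.76) and within plate 1 (1.27), Nrxn2 with no filter (-0.021) and without the litter block (-0.060), and Nrxn3 with type (0.12), within plate 1 (0.36) and without the Tafa4 type (0.040). In Nefh-high Calca-low neurons Nrxn3 turned with a Nefh minimum of 1000 CPM (-0.18) and no filter (-0.053), and for age Nrxn2 turned in hairy cells (-0.10). By type, glabrous cells alone turned Cbln2 in Nefh-high Calca-positive (0.080) and Nrxn2 (-0.24) and Nrxn3 (-0.36) in Nefh-low Calca neurons, and plate 2 turned Nrxn3 in Nefh-high Calca-positive (0.075) and Cbln2 in Tafa4 neurons (0.83). Leaving out 1 litter gave -0.45 to 2.97 (Cbln2, age), -0.15 to 0.14 (Nrxn2) and -0.66 to 0.043 (Nrxn3) for skin over all neurons, and -0.30 to 0.47 (Nrxn2) and -0.20 to 0.35 (Nrxn3) in Nefh-high Calca-low neurons.

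Without the litter block that pairs the sums, the counts were 11 and 31 for the 2 skin comparisons and 1162, 728, 676, 1320, 3723 and 3598 for Ret-dominant, Ntrk3-dominant, Ntrk2-dominant, Nefh-high Calca-positive, Tafa4 and Nefh-low Calca neurons. For types, the fits by plate and in glabrous cells (both with at least 1 cell per sum, so that 2 choices changed at once), with the non-neuronal level and without cells under 10000 genes were chosen after seeing the data, as were, for skin, those in Ret-dominant cells and without cells of no type. A Nefh minimum of 1000 CPM left no Ntrk2-dominant value, and glabrous cells with at least 2 per sum left only 3 types, so 1 cell was used. Depth limits the rare members Cbln1, C1ql1 and C1ql2, which had at most a few counts in a cell.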

Other observations

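The 11 cells of no type entered no comparison by type. Cbln2 reached 10 CPM in 2 of them and Nrxn3 in 4.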
